A study of Homo sapiens with 13 samples.

Results

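The 32 genes described here encode transcription factors and cofactors that set the identity of blood cells. They were chosen by name from the 58581 genes of the RNA-seq table, all 32 were found there, and 31 passed the filter on low counts with 22007 genes in all. HEL is a human erythroleukemia line with erythroid and megakaryocytic traits. Its cells were stably transduced with the splicing factor SRSF2, either as the P95H mutant seen in blood cancers or as wild type (WT). RNA-seq after rRNA depletion covered 2 P95H and 2 WT samples given doxycycline at 1 µg/ml for 48 hours, and 1 P95H sample labelled uninduced. HITS-CLIP, which sequences RNA crosslinked to a Flag-tagged protein, covered 4 P95H and 4 WT samples given the same dose for 36 hours. All samples were grown in the same serum-containing medium. Numbered samples are called biological replicates in the labels, which do not say whether a line was 1 clone or how cultures were kept apart, so p-values measure the spread between these samples.

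GATA1 and GATA2 bind GATA sites in DNA and work in a complex with the E-box factors TAL1 and TCF3, the bridging proteins LMO2 and LDB1 and the corepressor CBFA2T3. In erythroid and megakaryocytic cells this complex acts with KLF1, NFE2, GFI1B and the RUNX and ETS factors, while SPI1 and the C/EBP factors drive granulocyte and monocyte genes. GATA1 and SPI1 oppose each other when blood progenitors choose a fate.

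Promoters of TAL1 and KLF1 are shown because they hold motifs of the kinds that the complex reads. RefSeq promoters (GRCh38.p14) were found for 26 of the 32 genes, 46 promoters in all, and the 250 bases before each start were searched on both strands for AGATAA, bound by GATA factors, for the E-box CAGNTG, for the RUNX motif TGTGGT and for the ETS motif CGGAAG. Matches of different motifs may overlap each other. In the following sequences capitals mark any of the 4 motifs. Only these motifs were searched, so sites of the same factors spelled with other letters would stay in lower case and uncounted. The TAL1 promoter at chr1:47232336-47232585, minus strand, holds 1 AGATAA read on the other strand, and the KLF1 promoter at chr19:12887202-12887451, minus strand, holds 1 E-box read on the other strand.
TAL1: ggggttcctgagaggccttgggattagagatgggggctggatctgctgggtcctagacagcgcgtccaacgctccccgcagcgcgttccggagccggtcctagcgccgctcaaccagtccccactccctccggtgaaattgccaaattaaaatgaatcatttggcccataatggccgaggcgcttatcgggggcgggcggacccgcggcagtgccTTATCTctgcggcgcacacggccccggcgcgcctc
KLF1: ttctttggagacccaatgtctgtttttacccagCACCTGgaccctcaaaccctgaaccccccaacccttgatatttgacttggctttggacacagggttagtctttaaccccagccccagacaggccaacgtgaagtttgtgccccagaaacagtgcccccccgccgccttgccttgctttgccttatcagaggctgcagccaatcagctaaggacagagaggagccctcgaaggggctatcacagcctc
AGATAA was found in 10.9% of the 46 member promoters, against 9.17% of all 35116 promoters, and CAGNTG in 30.4% against 42.5%. TGTGGT was found in 17.4% against 10.98%, and CGGAAG in 13.0% against 16.5%. A match is a description of these windows and not a binding site.

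The RNA-seq libraries held 37414093 to 45005605 counts, so that 3 counts corresponded to 0.0667 to 0.0802 CPM, a count scaled to library size with TMM factors. These limits cover counting error only. SRSF2, the transduced gene, stood at 223 and 252 CPM in P95H, 222 and 241 CPM in WT and 285 CPM in the library labelled uninduced, so its counts did not mark that library as lower, and these counts do not separate the transgene from the cell's own copy. Mitochondrially encoded protein genes took 1.38% of counts in both replicate 1 libraries but 4.14% to 4.50% in the other 3. The numbered libraries thus split by replicate number, and the library labelled uninduced stood with the replicate 2 libraries. The labels name no batch, and what lies behind the split was not tested. Below, the replicate number is treated as a batch. Summed markers of erythroid cells (26 genes) ranged from 3659 to 5020 CPM and of megakaryocytes (20 genes) from 3468 to 7916 CPM over the 5 libraries. Myeloid and mast cell genes (14 genes) summed to between 144 and 198 CPM. Summed lymphoid markers (11 genes) ranged from 3.54 to 4.78 CPM. Of these only EBF1 was at 0 throughout, while CD4 reached 71 counts, NKG7 62 and CD79B 59 in a library. Epithelial and fibroblast markers (12 genes) ranged from 47.5 to 60.6 CPM. Only EPCAM and KRT19 were at 0 throughout, while KRT18 reached 1493 counts, THY1 846 and KRT8 335 in a library. In these bulk samples fewer cells of a kind and less RNA per cell cannot be told apart.

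The comparison of P95H with WT asks whether the mutant factor goes with other levels of these regulators. On group alone no gene of the list passed the test, and with the replicate number as a term 1 gene, GFI1, did. In the fit on group alone, edgeR's quasi-likelihood test called 0 of the 31 genes tested, with adjusted p of 0.9999 throughout, against a background of 0% of all genes. Before adjustment 0 of the 31 lay under 0.05, by edgeR or by DESeq2, which also called 0. Of all 22007 genes, 227 lay under 0.05 before adjustment by edgeR and 100 by DESeq2, and neither tool called any. Fitted log2 changes ran from -0.54 for GFI1 to 0.18 for SPI1, with 20 of 31 below 0 and a median of -0.047, beside 0.0020 for all genes tested. Standard errors of 0.10 to 0.54 leave room for moderate changes. The batch fit, which adds the replicate number as a term and leaves 1 residual degree of freedom, called 1 of the 31, GFI1, against 0.382% of all genes in either direction, 0.186% higher and 0.195% lower. Before adjustment 5 of the 31 lay under 0.05 in the batch fit by edgeR, beside 1859 of all 22007 genes. By DESeq2 these counts were 1 and 356. The median of edgeR's batch fit over the 31 genes was -0.046, beside 0.0037 for all genes.

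**Figure D1:**
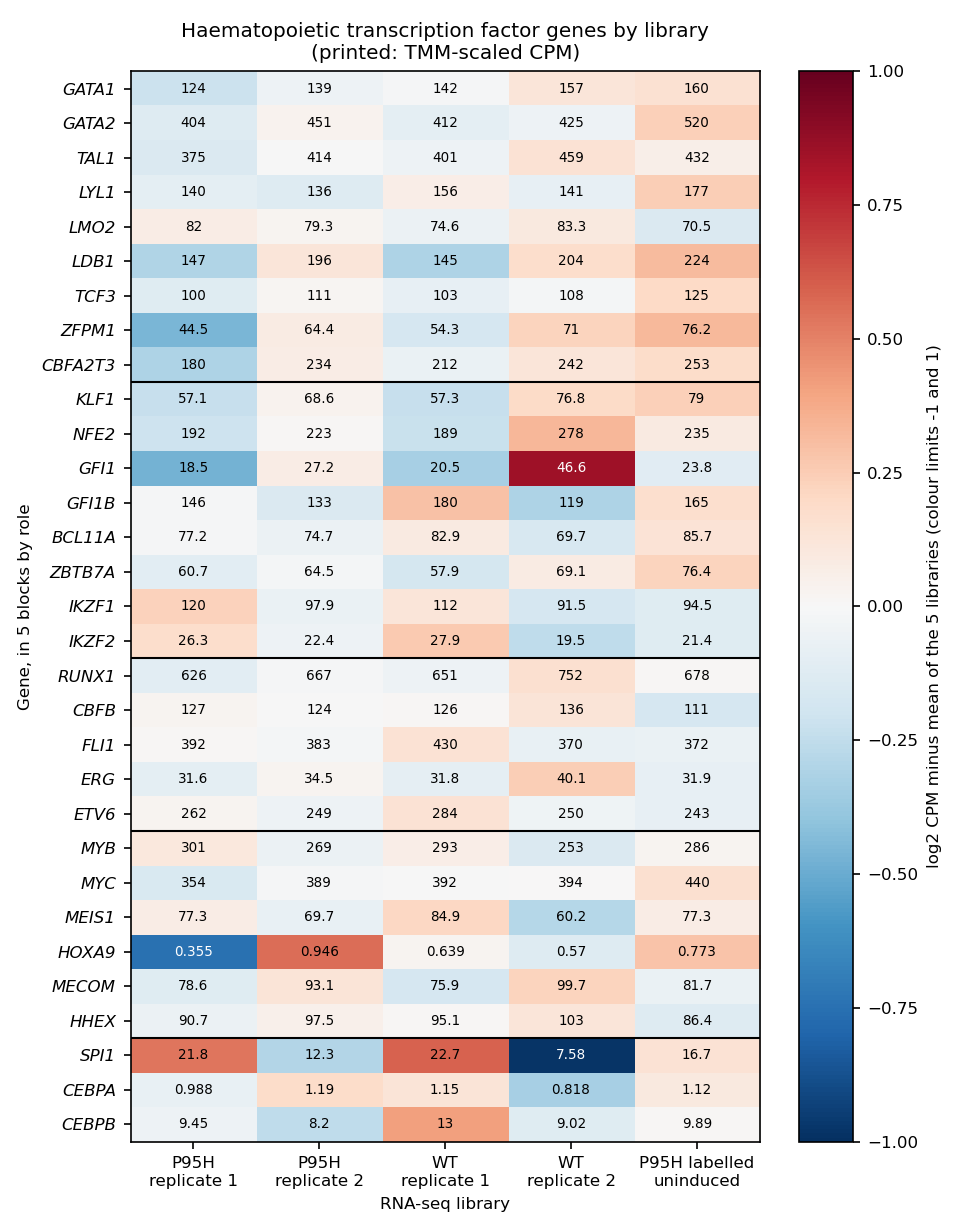
The 31 tested genes (rows, in 5 blocks by role) in the 5 RNA-seq libraries (columns), with TMM-scaled CPM printed and colour showing log2 CPM minus the mean of the 5 libraries. SPI1 differs most in colour between replicate numbers, with 21.8 and 12.3 CPM in P95H and 22.7 and 7.58 CPM in WT, and colours stop at the limits of the scale.

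GATA1, the master factor of red cell and platelet precursors, had 123.8 and 138.9 CPM in P95H replicates 1 and 2, against 142.3 and 156.8 CPM in WT replicates 1 and 2. Both P95H libraries lay below both WT libraries, and P95H minus WT was -0.20 within replicate 1 and -0.17 within replicate 2. The fitted change was -0.18 on group alone (SE 0.11, edgeR adjusted p 0.9999). It was -0.18 in the batch fit too (SE 0.075, edgeR adjusted p 0.483), so GATA1 passed neither fit. LYL1, a close relative of TAL1, also had groups that did not overlap, with 139.6 and 136.5 CPM in P95H and 156.5 and 141.1 CPM in WT. MYC, a driver of growth and proliferation, had 353.8 and 389.5 CPM in P95H and 391.8 and 393.8 CPM in WT, where the nearest libraries almost met. Neither LYL1 (-0.10, SE 0.10) nor MYC (-0.07, SE 0.11) passed edgeR's test in either fit. These were the 3 genes of 31 lying wholly lower in P95H, against 12.2% of all genes, and 0 of 31 lay wholly higher, against 12.1%. The share lower was thus near the background.

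The other genes of the complex had overlapping groups. GATA2, which maintains progenitors and is replaced by GATA1 during red cell maturation, had 403.7 and 451.4 CPM in P95H and 411.7 and 424.6 CPM in WT. The P95H values enclosed the WT values, and the log2 change was 0.04 (SE 0.11). TAL1 had 375.4 and 414.0 CPM in P95H and 401.4 and 459.0 CPM in WT, a log2 change of -0.11 (SE 0.12) with overlapping groups. LDB1, the protein that loops distant GATA-TAL1 sites to promoters, had 146.7 and 196.1 CPM in P95H and 145.4 and 204.2 CPM in WT. Its replicates were about as far apart in each genotype, and its change was -0.02 (SE 0.21). ZFPM1, the GATA1 cofactor FOG1, had 44.5 and 64.4 CPM in P95H and 54.3 and 71.0 CPM in WT, with -0.29 within replicate 1, -0.14 within replicate 2 and an edgeR adjusted p of 0.454 in the batch fit. CBFA2T3 had 179.8 and 234.0 CPM in P95H and 212.1 and 242.1 CPM in WT. Of the 9 genes of the core and its cofactors, 5 were lower in P95H within both replicate numbers, 0 were higher within both, and 0 passed either fit.

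GFI1, a transcriptional repressor of progenitors and granulocyte precursors, was the gene that passed the batch fit. It had 18.5 and 27.2 CPM in P95H replicates 1 and 2, against 20.5 and 46.6 CPM in WT replicates 1 and 2. WT replicate 2 stood far above the other 3 libraries, and the groups overlapped. The batch fit gave GFI1 a fall of -0.47 with an SE of 0.11 (edgeR adjusted p 0.0362), while P95H minus WT was -0.14 within replicate 1 and -0.78 within replicate 2. On group alone the change was -0.54 (SE 0.38), and without WT replicate 2 it was 0.16. In the batch fit the call was lost with DESeq2's test (adjusted p 0.9999) and with a stricter filter on low counts (edgeR adjusted p 0.165). Its paralog GFI1B, the repressor of erythroid and megakaryocytic cells, had 146.2 and 133.0 CPM in P95H and 180.1 and 118.9 CPM in WT, with P95H minus WT of -0.30 within replicate 1 and 0.16 within replicate 2.

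RUNX1, a regulator of blood stem cells and platelet formation, had 625.7 and 666.5 CPM in P95H and 651.1 and 752.4 CPM in WT, a log2 change of -0.11 (SE 0.13). Its groups overlapped. FLI1 and ERG, ETS factors of megakaryocytes and stem cells, stood at -0.03 and -0.11. ETV6, an ETS repressor, stood at -0.05, and CBFB, the partner protein of RUNX1, at -0.05. None of these 5 passed either fit. ERG had 31.6 and 34.5 CPM in P95H and 31.8 and 40.1 CPM in WT, and ETV6 had 261.9 and 248.9 CPM in P95H and 284.0 and 250.1 CPM in WT. The remaining factors also did not pass. Among them IKZF1, the lymphoid and erythroid factor Ikaros, and MYB, a progenitor factor, were higher in P95H within both replicate numbers, by 0.10 and 0.10 for IKZF1 and by 0.04 and 0.09 for MYB. CEBPB, an inducible granulocyte and monocyte factor, was lower within both, with differences of -0.46 and -0.14. Counted over the list, 13 of 31 genes were lower in P95H within both replicate numbers, against 27.7% of all genes, and 2 were higher within both, against 26.6%. The median P95H minus WT of the 31 was -0.086 within replicate 1 and -0.050 within replicate 2, beside -0.0058 and -0.00021 for all genes.

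**Figure D2:**
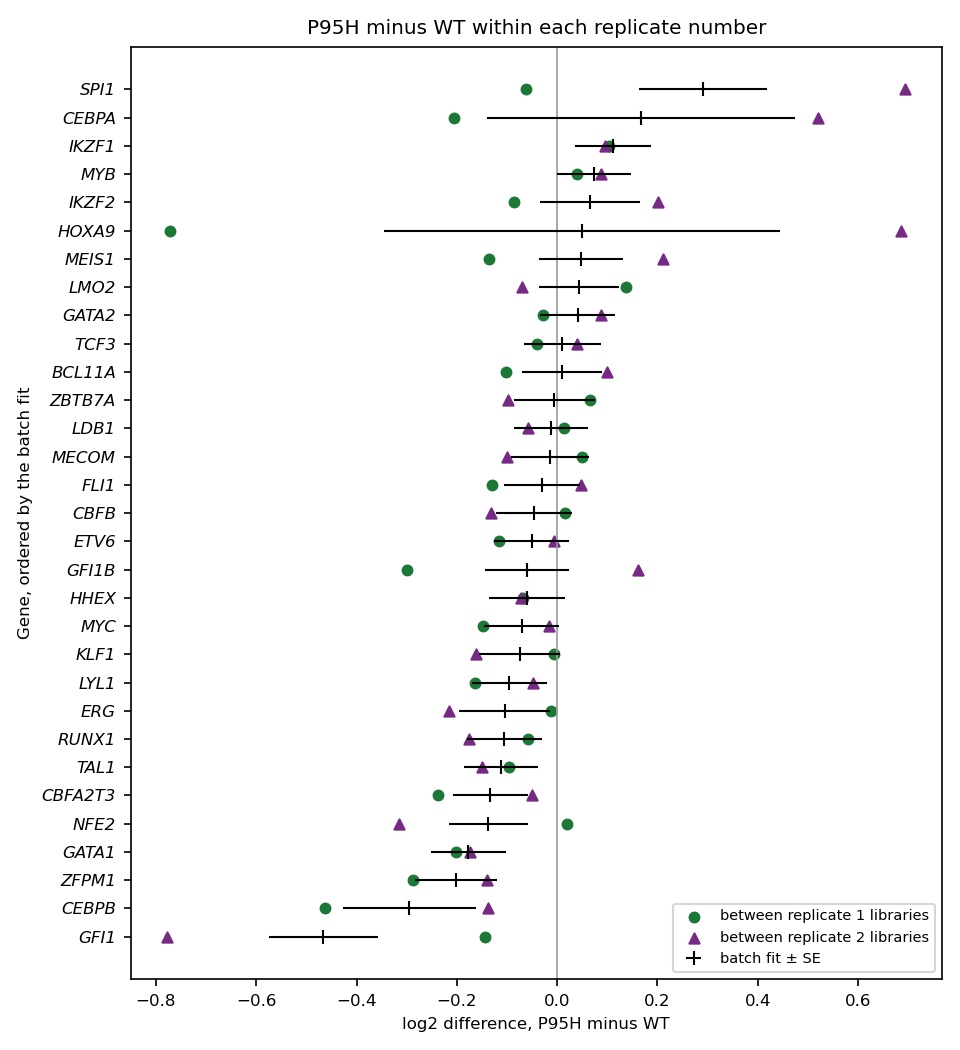
P95H minus WT on the log2 CPM scale (x axis) for the 31 genes (y axis, ordered by the batch fit), between replicate 1 libraries (circles), between replicate 2 libraries (triangles) and in the batch fit with its SE (bars). GFI1 lies lowest at -0.47 in the fit, with -0.14 and -0.78 in the pairs, while SPI1 lies highest at 0.29, with -0.06 and 0.69.

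HOXA9 and CEBPA had low counts, above the floor of 3, with HOXA9 at 0.355 and 0.946 CPM in P95H and 0.639 and 0.570 CPM in WT, and CEBPA at 0.988 and 1.19 CPM in P95H and 1.15 and 0.818 CPM in WT. The HOXA9 counts were 14 and 42 in P95H and 29 and 23 in WT, and HOXA10, which overlaps it on the same strand, was far more abundant, so its value is uncertain. IRF8, a monocyte and lymphoid factor, had 1 and 0 counts in P95H, 0 and 0 in WT and 1 in the library labelled uninduced, and was not tested. Antisense genes overlapping TAL1, ZFPM1, CBFA2T3 and FLI1 had 5.10% to 9.27% of the counts of their partners. The sources used here do not say whether counting used strand, so reads of these pairs may be mixed.

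HITS-CLIP gave a separate measurement of the same genes, the binding of P95H or WT protein along their RNA. The authors' deposited table lists windows of 20 or 21 bases in which binding differed, each with an adjusted p of at most 0.05 and at least a 2-fold change, so windows tested without passing are not listed. All means, standard errors and adjusted p-values of windows below are from the authors' deposited table. Of the 31 genes tested in RNA-seq, 6 (19.4%) held a window there, against 9.69% of all genes tested. Among genes of at least 10 CPM, 6 of 28 held one, against 18.3%. The 6 genes held 16 windows, of which 12 were higher in P95H and 4 higher in WT, whereas 22.3% of all 8100 windows were higher in P95H. Merging overlapping windows left 12 regions, 9 of them higher in P95H, against 33.9% of all regions. Neighbouring windows share reads and are not independent, so the counts are a description. Windows were all higher in P95H in 3 of the 6 genes, against 31.2% of all genes with windows, all higher in WT in 2, against 58.1%, and of both directions in LDB1, against 10.7%.

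GATA2 and GATA1 held 9 of the 16 windows, and P95H was higher in all 9 windows of the authors' deposited table. In GATA2 (chromosome 3, minus strand, GRCh38) binding at 128479728 to 128479748, which is 301 bases from the gene's 3′ end, averaged 3.15 ± 1.87 CPM in P95H and 0.37 ± 0.36 CPM in WT (SEM). That is a log2 change of 2.58 with an adjusted p of 1.33e-06 in the authors' deposited table. A window at 128479733 to 128479753 overlaps it and had 3.19 CPM in P95H and 0.41 CPM in WT. Separate GATA2 windows lay at 128480530 to 128480550, annotated to a processed transcript, with 0.78 CPM in P95H and 0.07 CPM in WT, and at 128480753 to 128480773, with 1.65 CPM in P95H and 0.25 CPM in WT. The window with the most binding, at 128485950 to 128485970, had 5.18 ± 3.15 CPM in P95H and 2.33 ± 2.33 CPM in WT, with the smallest change of the 5 (1.02, adjusted p 0.0355 in the authors' deposited table). GATA2 RNA itself differed by 0.04 on the log2 scale.

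In GATA1 (chromosome X, plus strand) 3 overlapping windows spanned 48793844 to 48793881, ending 430 bases from the gene's 3′ end. The first averaged 2.91 ± 2.05 CPM in P95H and 0.32 ± 0.32 CPM in WT (SEM), a log2 change of 2.62 with an adjusted p of 1.77e-06 in the authors' deposited table. The fourth window, at 48792021 to 48792041, had 2.56 ± 1.19 CPM in P95H and 0.77 ± 0.61 CPM in WT, a change of 1.45. GATA1 thus had more P95H than WT protein on its RNA in these windows, while its RNA stood at -0.18 without passing the test. Among all 507 genes with at least 4 windows, 11% had every window higher in P95H, as GATA1 and GATA2 did.

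**Figure D3:**
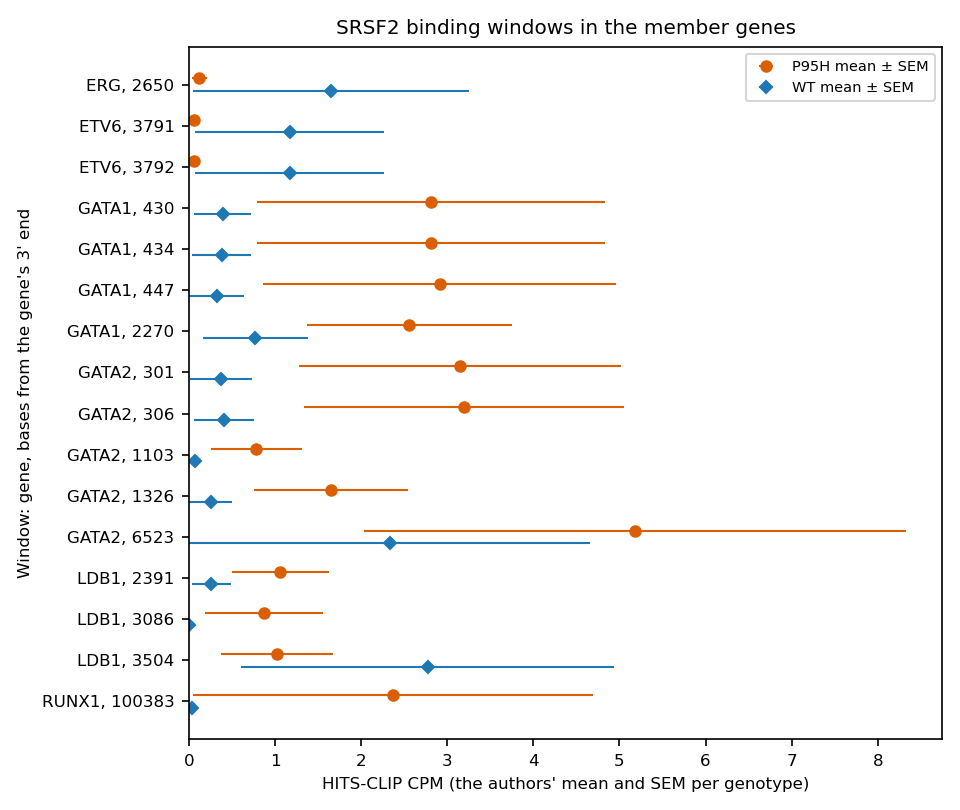
The authors' mean HITS-CLIP CPM with its SEM (x axis) for the 16 windows (y axis, labelled by gene and by the distance in bases from the gene's 3′ end), P95H as circles above WT as diamonds. All 9 windows of GATA1 and GATA2 lie further right in P95H, the largest at 5.18 CPM; ERG and ETV6 lie further right in WT.

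LDB1 (chromosome 10, minus strand) held windows of both directions. At 102109951 to 102109971 binding was 1.06 ± 0.56 CPM in P95H and 0.26 ± 0.23 CPM in WT, and at 102110646 to 102110666 it was 0.87 ± 0.69 CPM in P95H and listed at 0 in WT. At 102111064 to 102111084 it was 1.02 ± 0.65 CPM in P95H and 2.77 ± 2.17 CPM in WT, a log2 change of -1.30 with an adjusted p of 0.0187 in the authors' deposited table. RUNX1 (chromosome 21, minus strand) had a window at 34888184 to 34888204, 495 bases downstream of a RefSeq start of the gene. It stood at 2.37 ± 2.32 CPM in P95H and 0.03 ± 0.03 CPM in WT, a change of 6.11. ERG (chromosome 21, minus strand) had a window at 38382677 to 38382697, with 0.12 ± 0.09 CPM in P95H and 1.65 ± 1.60 CPM in WT. ETV6 (chromosome 12, plus strand) had a window from 11891590, listed with ends at 11891610 and 11891611, with 0.06 ± 0.04 CPM in P95H and 1.17 ± 1.10 CPM in WT.

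The standard errors bear on how these windows may be read. If an SEM is taken over 4 samples, it equals the mean when 1 sample holds all the signal. In the genotype with more binding the ratio of SEM to mean was 0.979 for RUNX1, 0.970 for ERG and 0.940 for ETV6, and these 3 genes held the 4 member windows with a ratio of at least 0.9, a level reached by 21.8% of all windows. It was 0.465 to 0.719 in GATA1, 0.539 to 0.679 in GATA2 and 0.528 to 0.793 in LDB1, beside a median of 0.737 over all windows. Values per sample are not used here, so how many samples carried a window was not tested.

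How the genes varied between libraries of the same genotype was measured by the replicate number term of the batch fit. There 13 of the 31 genes differed, with 7 higher and 6 lower in replicate 2 libraries, against 19.2% of all genes in either direction, 10.3% higher and 8.87% lower. Among genes of at least 10 CPM, 12 of 28 differed, against 25.9%. The labels do not say what a replicate number stands for, and the test has 2 libraries on each side.

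SPI1, the granulocyte and monocyte factor PU.1, showed the largest fall of the 31 and had 12.3 CPM in P95H and 7.58 CPM in WT in the replicate 2 libraries, against 21.8 CPM in P95H and 22.7 CPM in WT in the replicate 1 libraries. Replicate 2 minus replicate 1 was -0.82 within P95H and -1.58 within WT, and the fitted change was -1.19 (SE 0.13, edgeR adjusted p 6.50e-09). The level in the library labelled uninduced, 16.7 CPM, lay between. GFI1 showed the largest rise, 0.88 (SE 0.11), with 0.55 within P95H and 1.18 within WT. The other rises were 0.45 for LDB1, 0.46 for ZFPM1, 0.28 for CBFA2T3, 0.34 for KLF1, 0.38 for NFE2 and 0.32 for MECOM, a stem cell factor. KLF1, which activates adult globin genes, had 68.6 CPM in P95H and 76.8 CPM in WT in replicate 2, against 57.1 CPM in P95H and 57.3 CPM in WT in replicate 1. NFE2, which activates globin and platelet genes, had 223.0 CPM in P95H and 277.6 CPM in WT in replicate 2, against 191.9 CPM in P95H and 189.2 CPM in WT in replicate 1. MECOM had 93.1 CPM in P95H and 99.7 CPM in WT in replicate 2, against 78.6 CPM in P95H and 75.9 CPM in WT in replicate 1. For these 3 genes the replicate numbers did not overlap, which was common. In the list 14 of 31 genes lay wholly higher in replicate 2, against 27.7% of all genes. Another 10 lay wholly lower, against 29.2%.

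Besides SPI1, the genes that fell were IKZF1 by 0.29, IKZF2, a relative of IKZF1, by 0.37, GFI1B by 0.37, CEBPB by 0.37 and MEIS1, a HOX cofactor of leukemic progenitors, by 0.32. IKZF1 had 97.9 CPM in P95H and 91.5 CPM in WT in replicate 2, against 120.2 CPM in P95H and 111.8 CPM in WT in replicate 1, nearly the same shift in each genotype. MEIS1 had 69.7 CPM in P95H and 60.2 CPM in WT in replicate 2, against 77.3 CPM in P95H and 84.9 CPM in WT in replicate 1. IKZF2 had 22.4 CPM in P95H and 19.5 CPM in WT in replicate 2, against 26.3 CPM in P95H and 27.9 CPM in WT in replicate 1. CEBPB was low throughout, with 8.197 CPM in P95H and 9.02 CPM in WT in replicate 2, against 9.45 CPM in P95H and 13.0 CPM in WT in replicate 1, and its call was close to the threshold (edgeR adjusted p 0.0435). Other genes of the complex did not pass: GATA1 stood at 0.15 (edgeR adjusted p 0.156), TAL1 at 0.17 (edgeR adjusted p 0.112), GATA2 at 0.10 and LMO2, the LIM-domain bridge, at 0.05. DESeq2's test called 8 of the 13, the 7 rises and SPI1.

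**Figure D4:**
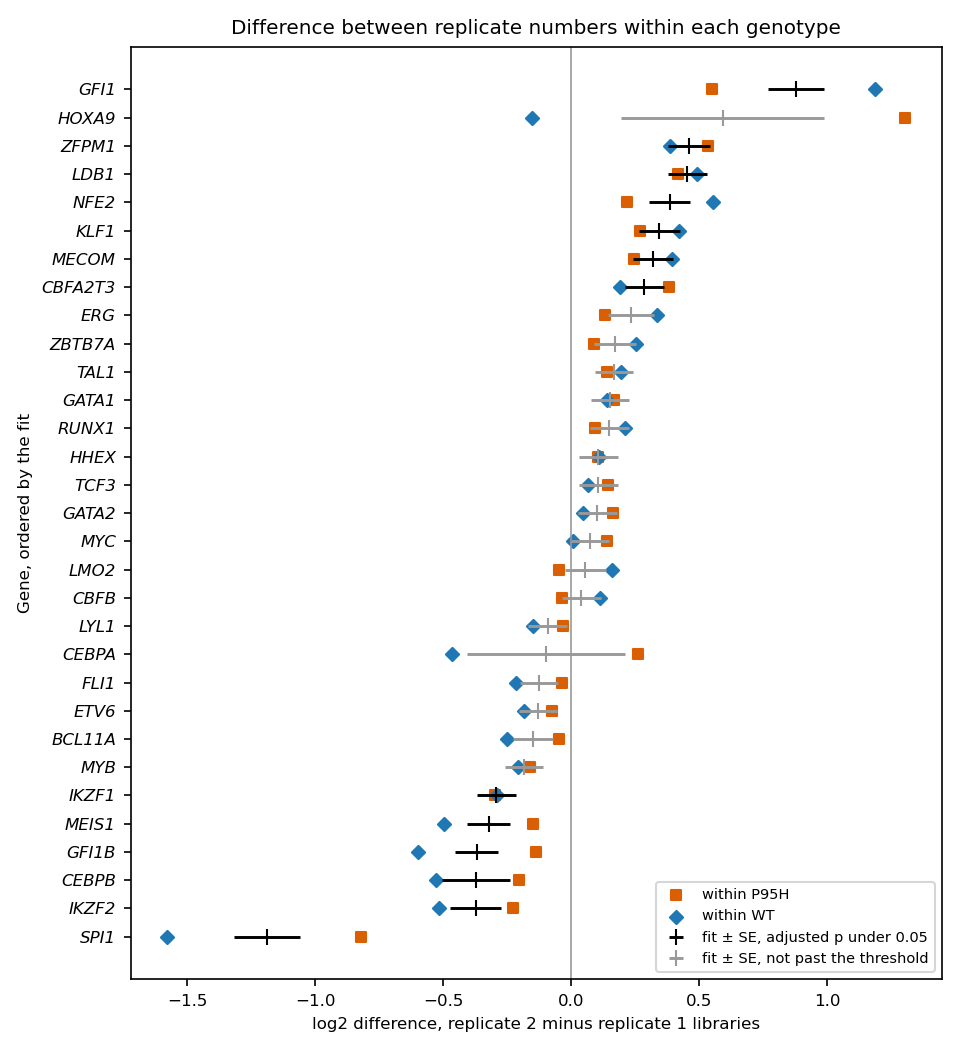
Replicate 2 minus replicate 1 on the log2 CPM scale (x axis) for the 31 genes (y axis), within P95H (squares), within WT (diamonds) and as the fitted term with its SE (black where past the threshold, grey where not). GFI1 lies highest at 0.88 and SPI1 lowest at -1.19, and in both the WT libraries lie further apart than the P95H libraries.

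Erythroid target genes moved with the replicate number as well, and their part in the shifts of the transcription factors was not tested. Of 24 erythroid genes tested, 18 rose and 2 fell in replicate 2 (83.3%), against 19.2% of all genes and 25.9% of genes of at least 10 CPM, with a median of 0.64; examples were HBG2, a fetal globin, by 1.00 and TFRC, the transferrin receptor, by 0.76. Globin reads can be split among near-identical copies. Of 18 megakaryocyte genes tested, 7 rose and 3 fell (55.6%), with a median of 0.20. CPA3, a mast cell protease among the 9 myeloid and mast cell genes tested, fell by 3.43, and that list had 0 rises and 2 falls (22.2%), the other in LYZ, the gene of lysozyme. Among 44 other blood transcription factors tested, 10 rose and 4 fell (31.8%), including rises of 1.57 for IRF1, an interferon-responsive factor, and 0.52 for MAFG, the small MAF partner of NFE2. Among 28 cofactors tested, 7 rose and 1 fell (28.6%), including rises of 0.49 for SSBP3, a partner of LDB1, and 0.43 for RUNX1T1, a relative of CBFA2T3. The shares of the other factors and the cofactors were near that of genes of at least 10 CPM.

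Between P95H and WT no gene of the same lists passed on group alone, and calls in the batch fit differed by list. None of the 44 other blood factors or 28 cofactors passed either fit, counts of 0 that are read against 0% and 0.382% of all genes. The smallest p of the other factors in the batch fit was that of FOXO3, a stress-responsive factor of red cell precursors, with 130.0 and 131.0 CPM in P95H and 153.5 and 173.7 CPM in WT and a change of -0.31 (edgeR adjusted p 0.0501), followed by KLF10 at -0.30. Among cofactors RUNX1T1 stood at -0.19. Median batch-fit changes were -0.10 for the other factors and -0.04 for the cofactors, and -0.12 and -0.13 for erythroid and megakaryocyte genes, beside 0.0037 for all genes. In the batch fit alone, edgeR called 4 of 18 megakaryocyte genes lower, ITGB3, TUBB1, THBS1 and PLEK, against 0.195% of all genes. HBE1, an embryonic globin, was called lower as 1 of 24 erythroid genes tested. CPA3 was called higher as 1 of 9 myeloid and mast cell genes tested, against 0.186% of all genes. These lists were chosen with earlier results of these data known. On group alone all 6 had an edgeR adjusted p of 0.9999, and DESeq2's test cut the batch fit's calls over all genes to 8, against 84.

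In HITS-CLIP, 7 of the 50 other blood factors held 24 windows, 7 of them higher in P95H, and 10 of the 28 cofactors held 42 windows, 3 of them higher in P95H. All genes give 22.3% of windows higher in P95H, and 9.69% of genes tested or 18.3% of those of at least 10 CPM with a window. In 5 of the 26 erythroid genes there were 6 windows, 5 higher in P95H, and in 4 of the 20 megakaryocyte genes 7, all higher in P95H in the authors' deposited table. Windows of 1 gene share its RNA, so these counts are set beside the 12 of 16 in the 32 genes as a description.

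P95H after doxycycline was also set against the single P95H library labelled uninduced, the spread coming from the groups with replicates. On group alone edgeR called 0 of 31 genes, against 0% of all genes. Before adjustment 1 of the 31 (LYL1) and 818 of all genes lay under 0.05. DESeq2 called 0 of the 31, none of them under 0.05 before adjustment, and 8 of all genes. For 11 of 31 genes the library labelled uninduced was above all 4 others, against 25.6% of all genes, and for 4 it was below all 4, against 22.1%. For the other 16 (51.6%) it lay within their range, against 52.2% of all genes, so standing outside was no more frequent in the list than the background. Among genes of at least 10 CPM it was above for 11 of 28, against 26.7%, and below for 4, against 31.4%.

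The 11 genes above included 7 of the 9 genes of the GATA-TAL1 core and its cofactors, where 25.6% of all genes lay above. GATA2 had 403.7 and 451.4 CPM in P95H after doxycycline, against 520.1 CPM in the library labelled uninduced, a log2 difference of -0.28 (SE 0.14). GATA1 had 123.8 and 138.9 CPM after doxycycline, against 160.1 CPM, and LYL1 139.6 and 136.5 CPM, against 177.4 CPM. LDB1 had 146.7 and 196.1 CPM after doxycycline, against 224.3 CPM, ZFPM1 44.5 and 64.4 CPM, against 76.2 CPM, TCF3, the E protein partner of TAL1, 100.5 and 111.1 CPM, against 125.4 CPM, and CBFA2T3 179.8 and 234.0 CPM, against 252.5 CPM. KLF1, MYC and the fetal globin repressors BCL11A and ZBTB7A completed the 11. KLF1 had 57.1 and 68.6 CPM after doxycycline, against 79.0 CPM, ZBTB7A 60.7 and 64.5 CPM, against 76.4 CPM, and MYC 353.8 and 389.5 CPM, against 439.5 CPM. In the other direction, LMO2, CBFB, ETV6 and HHEX, a homeobox factor of progenitors, were lowest in the library labelled uninduced. Because only 1 library carries the label, its batch and its label cannot be told apart.

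With the library labelled uninduced placed among the replicate 2 libraries, whose mitochondrial share it resembled, the batch fit called 3 of the 31 genes lower in P95H and 0 higher, against 3.61% of all genes in either direction, 2.72% lower and 0.897% higher. They were LYL1 (-0.41, SE 0.10, edgeR adjusted p 0.00339), GFI1B (-0.42, edgeR adjusted p 0.00170) and SPI1 (-0.62, edgeR adjusted p 0.00254). Placed with the replicate 1 libraries, it called 12 lower and 3 higher, against 15.4% of all genes in either direction, 10.4% lower and 4.94% higher, with LYL1 at -0.32 among the falls, GFI1B at -0.06 not called and SPI1 at 0.57 among the rises. LYL1 was thus lower in both placings, with -0.35 for P95H replicate 1 and -0.38 for P95H replicate 2 against that library. SPI1 changed direction with the placing. Both placings rest on the same single library, and a gene's estimates differ between them by about its replicate number term. They are therefore not separate checks, and LYL1 did not pass on group alone.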

How the data were processed

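For RNA-seq the authors deposited unnormalized counts for each Ensembl gene. GRCh38.p3, TopHat2 2.0.14, STAR 2.5.3a and edgeR appear, with no role, in the submitters' processing notes; the sources used here name no counting program or annotation release. Per the file headers, the deposited HITS-CLIP table gives a comparison made by the authors: log2 change of P95H over WT, adjusted p-value (FDR) and mean CPM with its SEM per genotype, as deposited. Of 8324 entries, repeated positions were counted once, leaving 8100 windows. Window sequences were not analysed here.

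Tests on counts used edgeR 4.0.16 under R 4.3.3 (filterByExpr, TMM, quasi-likelihood test, two-sided, Benjamini-Hochberg over all genes, threshold 0.05), with DESeq2 1.42.0 as an alternative. Log2 CPM had a prior count of 2. P95H against WT used 4 libraries, and the comparison with the library labelled uninduced used 5. Same-numbered P95H and WT libraries deviated together (r = 0.719 across 12824 genes); with 2 pairs and no label on what a number means, this is a hint from the data. The batch fit takes the replicate number as batch because the mitochondrial share split the same way. Scripts were tested on simulated data. Tables and figures used Python 3.11.15, pandas 2.3.3 and matplotlib 3.10.9.

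The 32 genes were given by name. Members and lists were chosen with earlier results of these data known. Of 162 genes in the 7 other lists, 161 were matched. Values per library are given for genes past a threshold, with groups that do not overlap or with a window, and for GATA1, GATA2, TAL1 and RUNX1; for other lists up to 4 genes past the threshold or the 2 with the smallest p were to be named, fewer being named here. Some genes of the other lists are not reported here.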

Additional observations from a re-analysis of the deposited data

How the results depend on the processing

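In P95H against WT, the count of 0 members called on group alone was also 0 with DESeq2 size factors, DESeq2's test, no filter, a stricter filter, all 5 libraries or any 1 of the 4 libraries left out, and was 1 with the replicate block (the batch fit). Over all genes the count of 0 became 15 without a filter and 84 with the replicate block. In that block the members called fell to 0 with the stricter filter and with DESeq2's test (chosen after seeing the data), and all genes called were 43, 8 and, without a filter, 141. The median of the 31 members, -0.047, ranged from -0.087 to -0.021 with 1 library left out and was -0.086 within replicate 1. With 1 library left out, ERG ranged from -0.27 to 0.059, ETV6 from -0.15 to 0.041, GATA2 from -0.046 to 0.12, GFI1 from -1.02 to 0.16 and LDB1 from -0.25 to 0.24. Changes of other named genes moved as well, GATA1 from -0.27 to -0.098, TAL1 from -0.21 to -0.021, LYL1 from -0.18 to -0.021, RUNX1 from -0.21 to -0.0074, MYC from -0.15 to -0.0031, ZFPM1 from -0.49 to 0.049, NFE2 from -0.41 to 0.14 and SPI1 from -0.41 to 1.18. Against the library labelled uninduced the replicate block called 3 or 15 members by placing and 866 or 3685 of all genes, DESeq2's test called 8 of all genes and no filter gave 92. SPI1 there was 0.030 on group alone, -0.62 in the replicate 2 placing, and -0.42 and 0.39 without P95H replicate 1 and 2. For the replicate number term DESeq2's test gave 8 members and 1459 of all genes, against 13 and 4226; leaving out a library leaves no residual degree of freedom, so it was not run. The 16 windows became 14 at an adjusted p of 0.01 and 12 at 4-fold. The cause of these changes was not tested.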
